A study of Arabidopsis thaliana with 6 samples.

Results

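Transposable elements (TEs) with lower RNA levels in the sams3 mutant of Arabidopsis thaliana than in L119 are described here. They are the 30 rows with a log2 value in the authors' deposited table of lower TEs, out of 1366 features in the 3 lists used, the others being 442 lower and 894 higher genes. Of the 30, 28 carry TE identifiers (AT, the chromosome digit, TE and a number) and 2 carry gene identifiers. The members were selected on the fold change and p-value of the contrast between sams3 and L119, so both are given as a description, with no test. The header of the TE list does not name the genotype, so the direction, sams3 over L119, was read from the names of the deposited workbook and table and from the negative log2 values.

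The sams3 mutant, with a mutation in S-adenosylmethionine synthetase 3, was compared with L119, which is itself a transgenic line and stands for the wild type here, and the labels name L119 as the ecotype of both. Each genotype had 2 RNA libraries made from whole seedlings of 15 days, grown on agar plates with 20 g/L sucrose at 22 °C and with 23 h of light a day. Bisulfite sequencing of 1 library of each genotype was not analysed here. The labels do not give the sams3 allele or the transgene of L119, nor whether the 2 libraries came from separate cultures, so the p-values may measure technical spread.

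TEs are mobile DNA sequences, and most copies in the Arabidopsis genome are kept silent by DNA methylation and by methylation of histone H3 at lysine 9. Both marks take their methyl group from S-adenosylmethionine, which the SAMS enzymes make from methionine and ATP. Loss of silencing is known to raise TE transcripts, whereas the elements described here are those whose listed level was lower in the mutant. In RNA from whole seedlings, fewer cells with a transcript and less transcript per cell cannot be told apart.

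Most of the falls were modest and a few were very large. The median log2 fold change of sams3 over L119 was -1.55 in the authors' deposited table, with quartiles of -2.34 and -1.20, which is 2.93-fold lower at the median. Among the 442 lower genes in the authors' deposited table the median log2 was -1.27. AT3TE44395 had the largest fall in the authors' deposited table, with a log2 of -7.33, or 161-fold lower. AT2TE20905 followed with -6.65 and AT5TE93075 with -6.07 in the authors' deposited table, which are 100.3-fold and 67.3-fold lower. These 3 elements lie on chromosomes 3, 2 and 5, as their identifiers give them, and the next fall in size was -4.00 in the authors' deposited table, so a gap of more than 2 log2 units sets them apart from the other 27. Levels in single libraries were not among the files used. How many reads stood behind these values, and whether any element was at 0 in sams3, is therefore not known, and a fold against a count of 0 would depend on a prior count.

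**Figure D1:**
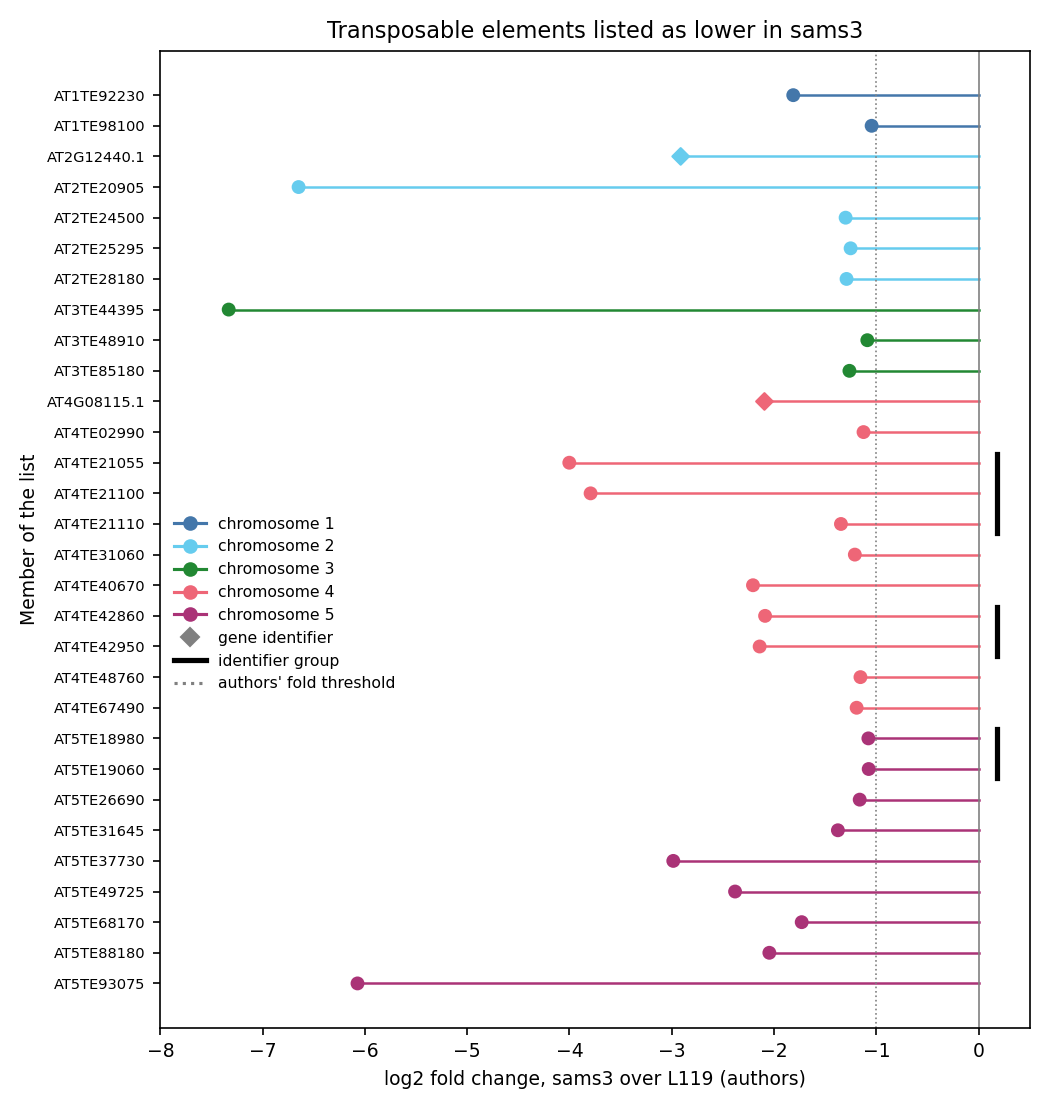
Log2 fold change of sams3 over L119 for each of the 30 listed TEs (horizontal axis), coloured by chromosome, with diamonds for the 2 gene identifiers and black bars beside the 3 groups of close identifier numbers. AT3TE44395, AT2TE20905 and AT5TE93075 reach -7.33, -6.65 and -6.07, and the element with the smallest fall stands at -1.05.

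Large falls made up a bigger share of the TE list than of the list of lower genes, while very small p-values made up a smaller share. In the authors' deposited table a log2 of -2 or lower was reached by 13 of the 30 TEs, or 43.3%, against 13.1% of the 442 lower genes. A log2 of -5 or lower was listed for 3 of 30 TEs and for 0.905% of the lower genes in the authors' deposited table. By contrast, a p-value below 1e-06 was held by 17 of 30 TEs, or 56.7%, against 81.4% of the lower genes in the authors' deposited table. For a p-value below 1e-20 the authors' deposited table gave 4 of 30 TEs and 38.9% of the lower genes. Those with both a log2 of -2 or lower and a p-value below 1e-06 numbered 8 of 30 TEs, against 9.5% of the lower genes, in the authors' deposited table. The same thresholds on fold and p chose both lists, so these shares describe selected values only, and no p-value was computed for these differences. How many reads stood behind either list is not known, nor whether TEs and genes were fitted together. The lists may therefore not be comparable in these shares.

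Size of fall and size of p-value did not run together among the TEs. Spearman's rho between the absolute log2 and the rank of a small p-value was 0.02 over the 30 TEs and -0.01 over the 442 lower genes in the authors' deposited table, all of them measured in the same 4 libraries. AT5TE49725 had the smallest p-value in the authors' deposited table, 7.18e-45, at a log2 of -2.38. Next in the authors' deposited table came AT4TE42860, with a p-value of 2.58e-35 at a log2 of -2.09. AT4TE67490 and AT4TE48760 were the next in the authors' deposited table, with p-values of 2.24e-23 and 1.64e-21 at the modest log2 values of -1.19 and -1.16. AT5TE31645 was the fifth, with 2.82e-17 at a log2 of -1.38 in the authors' deposited table. None of these 5 elements was among the 5 with the largest falls. With 5 of 30 in each set, little or no overlap is common without any link, so this is not a result about them.

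The elements with the largest falls had p-values in the middle of the list or near its threshold. In the authors' deposited table the p-value was 3.98e-07 for AT3TE44395, 1.02e-07 for AT2TE20905 and 4.18e-05 for AT5TE93075. Lower genes with a log2 of -5 or lower numbered 4, and 3 of them were like AT5TE93075 in p-value, with 2.09e-05 for AT4G36590, 2.21e-05 for AT5G45890 and 4.00e-05 for AT3G54070 in the authors' deposited table. The remaining gene, AT1G14880, had a p-value of 1.63e-112 at a similar log2 of -6.22 in the authors' deposited table. A fall of this size was thus listed with p-values that lie far apart.

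**Figure D2:**
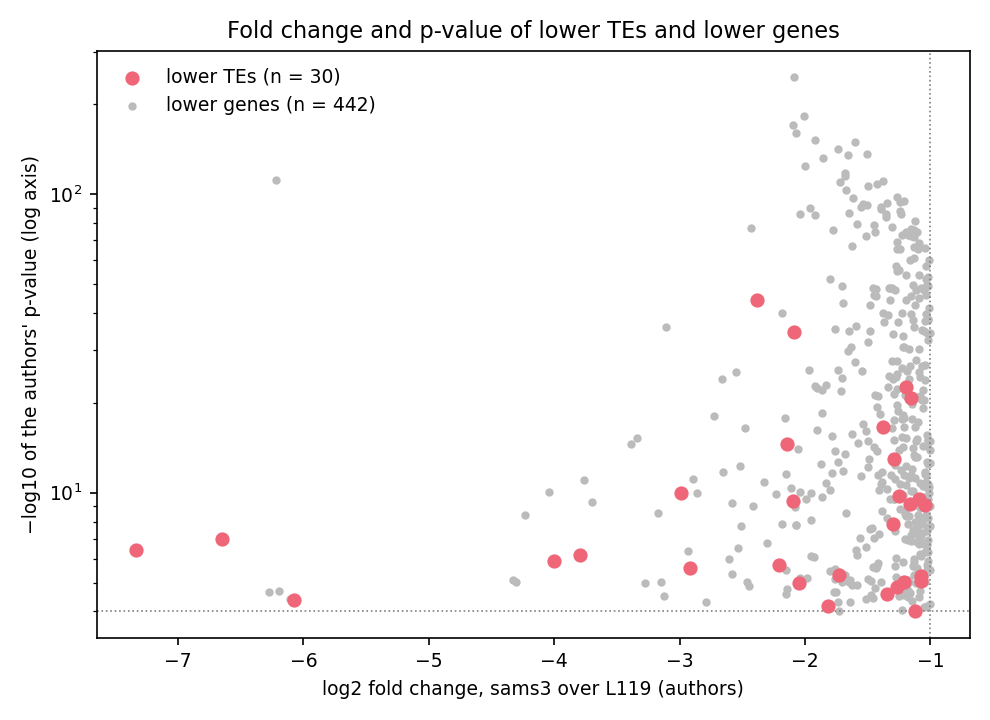
Authors' log2 fold change of sams3 over L119 (horizontal axis) and −log10 of the authors' p-value (vertical log axis) for the 30 lower TEs in red and the 442 lower genes in grey, with dotted lines at the authors' thresholds. The 3 TEs with the largest falls lie low on the p axis, and AT5TE49725, at a log2 of -2.38, lies highest among the TEs.

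Chromosomes 4 and 5, joined here as those with the most members, held 20 of the 30, or 66.7%, against 37.1% of the lower genes. Chromosome 4 had 11 members (36.7%) and chromosome 5 had 9 (30%), whereas chromosomes 1, 2 and 3 had 2, 5 and 3. For chromosome 4 the share among lower genes was 14.9%, and that among the loci of type pseudogene in the RefSeq table of TAIR10.1 was 18.2%. For chromosome 5 these shares were 22.2% and 20.6%, closer to that of the TEs. On chromosome 1 the shares were 6.67% of the TEs, 26.2% of the lower genes and 17.6% of the pseudogene loci. The number of TEs per chromosome that could have been listed is not known from the files used, and these shares were not tested. Members that lie close together are also not independent of each other, and the 3 groups of close identifier numbers all lie on chromosomes 4 and 5.

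**Figure D3:**
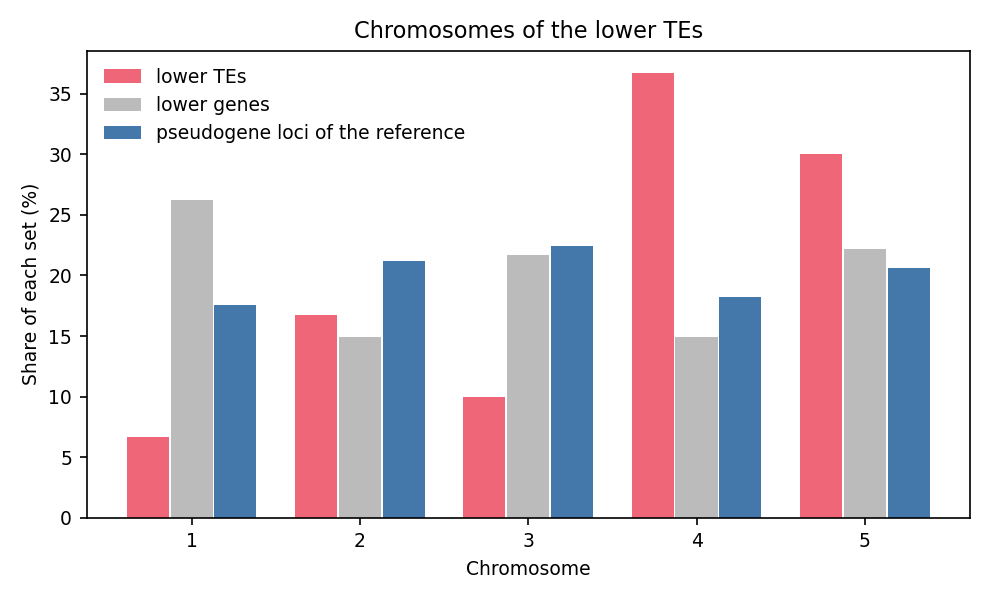
Share of each set on chromosomes 1 to 5, in percent, for the 30 lower TEs, the 442 lower genes and the pseudogene loci of the reference table. Chromosome 4 holds 36.7% of the TEs and 14.9% of the lower genes, and chromosome 1 holds 6.67% and 26.2%.

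The 11 members on chromosome 4 included moderate to large falls but none of the 3 largest. Their median log2 was -2.09 in the authors' deposited table, and 6 of the 11 had a log2 of -2 or lower. AT4TE21055 had a log2 of -4.00 and a p-value of 1.28e-06, and AT4TE21100 a log2 of -3.79 and a p-value of 6.27e-07, in the authors' deposited table. AT4TE40670 was lower by a log2 of -2.21, with a p-value of 1.82e-06 in the authors' deposited table. The authors' deposited table gives the smallest falls on this chromosome for AT4TE31060 (-1.21), AT4TE67490 (-1.19), AT4TE48760 (-1.16) and AT4TE02990 (-1.13).

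Among the 9 members on chromosome 5 the median log2 was -1.73 in the authors' deposited table, and 4 had a log2 of -2 or lower. After AT5TE93075 the falls in the authors' deposited table were -2.99 for AT5TE37730, which had a p-value of 1.0e-10, then -2.38 for AT5TE49725, -2.05 for AT5TE88180 and -1.73 for AT5TE68170. AT5TE88180 and AT5TE68170 had p-values of 1.02e-05 and 4.83e-06 in the authors' deposited table. The other 4 fell between -1.38 and -1.07 in the authors' deposited table, namely AT5TE31645, AT5TE26690, AT5TE18980 and AT5TE19060.

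Members on the other 3 chromosomes ran from just past the fold threshold to the largest fall of the list. AT2G12440 on chromosome 2, with a log2 of -2.91 in the authors' deposited table, is described below with the gene identifiers. On chromosome 2, AT2TE24500, AT2TE28180 and AT2TE25295 had nearly equal log2 values of -1.30, -1.29 and -1.25 in the authors' deposited table, with p-values of 1.48e-08, 1.04e-13 and 1.88e-10. On chromosome 3, AT3TE85180 stood at -1.26 and AT3TE48910 at -1.09 in the authors' deposited table. On chromosome 1, AT1TE92230 had a log2 of -1.81 with a p-value of 6.94e-05, and AT1TE98100 a log2 of -1.05 with a p-value of 8.24e-10, in the authors' deposited table. On chromosomes 2 and 3, AT2TE20905 and AT3TE44395 therefore stood more than 5 log2 units below every other TE identifier of their own chromosome in the list.

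Numbers in TE identifiers run along the chromosome, so that close numbers mark elements that lie near each other. Other TEs may carry the numbers in between, and distances in bases are not known here, so members of a group need not be adjacent. With a gap of at most 100 between numbers, 7 of the 28 TE identifiers fell into 3 groups, and the other 21 stood alone. On chromosome 4, AT4TE42860 and AT4TE42950, whose numbers are 90 apart, had log2 values of -2.09 and -2.14 in the authors' deposited table, with p-values of 2.58e-35 and 2.80e-15. On chromosome 5, AT5TE18980 and AT5TE19060, 80 apart, had log2 values of -1.08 and -1.07 and p-values of 9.09e-06 and 5.62e-06 in the authors' deposited table. Both pairs were thus nearly alike in fold within the pair. The pair on chromosome 5 lies just inside the fold threshold of the list. Alike values are common there, since 15 of the 30 members have an absolute log2 from 1 to below 1.5.

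The third group did not share its fold. AT4TE21055, AT4TE21100 and AT4TE21110 on chromosome 4 had log2 values of -4.00, -3.79 and -1.35 in the authors' deposited table. The numbers of AT4TE21100 and AT4TE21110 are only 10 apart, yet their log2 values differed by 2.45, and AT4TE21110 had the weaker p-value of 2.65e-05 in the authors' deposited table. Neighbouring identifiers in different groups or outside a group differed in log2 by a median of 0.60 over 19 such pairs, and 4 of these 19 differed by less than 0.1, so close agreement was also seen between elements with distant numbers. Elements of a group may lie in 1 transcript or share reads, and reads of similar TE copies may not be assigned to a single copy. The part of either in these values was not tested.

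AT2G12440 and AT4G08115, the members with gene identifiers, are both of type pseudogene in the RefSeq table, on chromosomes 2 and 4. AT2G12440 (listed as AT2G12440.1) had a log2 of -2.91 with a p-value of 2.62e-06 in the authors' deposited table, and AT4G08115 (listed as AT4G08115.1) a log2 of -2.09 with a p-value of 4.19e-10. Neither appeared in the lists of changed genes. Of the 20 loci nearest to AT4G08115 in the gene order of the table, 10 on each side, 18 were of type pseudogene and 0 protein coding, and for AT2G12440 the counts were 8 and 7. With 50 loci on each side, a width added after seeing the data, the order turned round, with 55 pseudogenes and 27 protein-coding loci of 100 around AT4G08115 and 68 and 15 of 100 around AT2G12440. Over the whole chromosome the share of that type was 12.2% of loci on chromosome 4 and 13.1% on chromosome 2.

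No gene within 10 loci on either side of these members was listed as changed in either direction. Only the gene lists were searched, because the listed TE identifiers have no place in this gene order. Of all protein-coding loci 4.7% were listed as changed, and the share among pseudogene loci was not computed. At that background the absence is not a result about these windows. The nearest listed locus to AT4G08115 was AT4G08093, a transcribed pseudogene 21 loci away, which was higher in sams3 with a log2 of 8.36 and a p-value of 2.47e-20 in the authors' deposited table. On the other side the nearest was AT4G08555, 87 loci away, also higher, with a log2 of 1.45 in the authors' deposited table. For AT2G12440 the nearest listed loci on the 2 sides were 135 and 531 loci away and were both transcribed pseudogenes listed as higher, AT2G13410 with a log2 of 3.17 and AT2G07783 with 1.05 in the authors' deposited table. The loci of the gene lists nearest to these lower members were thus all higher, in a series where higher genes outnumber lower ones by 894 to 442. Protein-coding loci made up 857 of the higher and 434 of the lower, so higher ones prevail more strongly among other types. Most of these nearest loci are of another type, so their direction is not a result about these members. A listed TE may lie nearer, which was not examined.

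**Figure D4:**
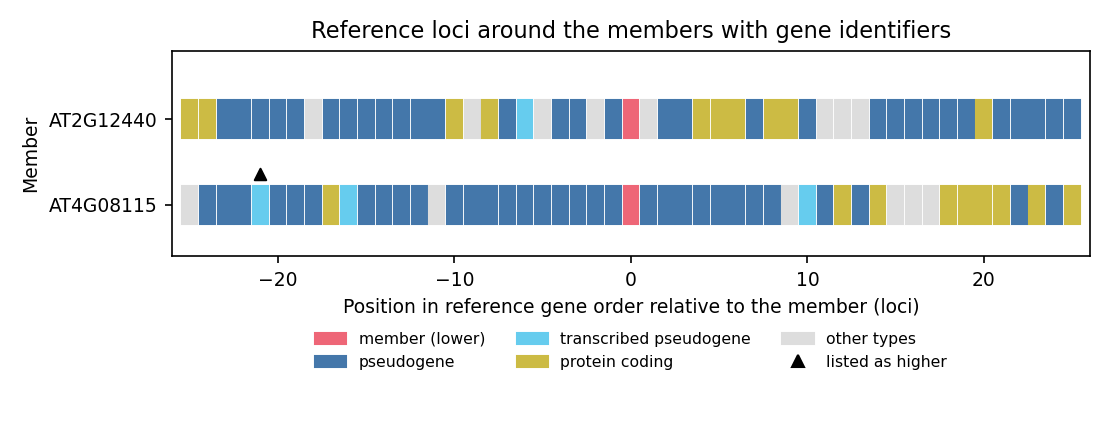
Reference loci in gene order around AT2G12440 and AT4G08115 (horizontal axis, number of loci from the member), coloured by type, with a triangle above a locus listed as higher in sams3. Within 10 loci of AT4G08115, 18 of 20 are pseudogenes, and the nearest locus of the gene lists, 21 loci away, is higher.

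Few genes of any small list would be in these lists, since 4.7% of the 27444 protein-coding loci in the RefSeq table were listed as changed, 3.12% as higher and 1.58% as lower. Of 39 genes that set, keep or remove DNA methylation and related marks, among them MET1, CMT3, DDM1 and the RNA polymerase subunits NRPD1 and NRPE1, 0 were listed as higher and 0 as lower. The count was also 0 of 4 for the S-adenosylmethionine synthetase genes, SAMS3 included. At that background neither count is a result about these genes. A gene outside the lists has no value here and cannot be called unchanged, and the check of the mutated gene cannot be made from these lists.

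Several members lay just inside the thresholds of 2-fold and of a p-value below 0.0001. Nearest to the fold threshold in the authors' deposited table were AT1TE98100 (-1.05), AT5TE19060 (-1.07), AT5TE18980 (-1.08), AT3TE48910 (-1.09) and AT4TE02990 (-1.13). Nearest to the p threshold in the authors' deposited table were AT4TE02990 (9.58e-05), AT1TE92230 (6.94e-05), AT5TE93075 (4.18e-05), AT4TE21110 (2.65e-05) and AT3TE85180 (1.47e-05). AT4TE02990 was close to both thresholds, and AT5TE93075 combined the third largest fall with the third largest p-value. Values of TEs just outside the thresholds were not used here.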

How the data were processed

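A feature entered a list when its change was 2-fold or more and its p-value was under 0.0001, per the file headers. Log2 fold changes and p-values come from the authors' comparison of 2 sams3 with 2 L119 RNA libraries; the headers do not say whether p was adjusted. Bismark, Bowtie2, edgeR and the build TAIR10 are named, without versions, in the submitters' processing notes. The headers do not say how reads of repeated copies were assigned. Log2 values have up to 6 digits in the TE list and up to 17 in the gene lists, and whether TEs and genes were fitted together is not stated. The table named for higher TEs repeats the higher genes and was not used. No per-library value was used, so depth and precision are unknown.

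All 30 members are named. The rule for those described further took the 5 with the largest falls, the 5 with the smallest p-values, the 5 nearest to each threshold, members of identifier groups and gene identifiers. AT4TE40670, AT5TE37730, AT5TE88180, AT5TE68170, AT2TE24500, AT2TE28180 and AT2TE25295 fall outside it and were given p-values after their values were seen. Members and lists were chosen with earlier results of these data known. Gene types and order came from the RefSeq table of TAIR10.1, a build name that differs from the authors', so no coordinates are given. The grouping of identifiers was tested on simulated identifiers. Tables were read with pandas 2.3.3 and numpy 2.4.6 in Python 3.11.15, intervals came from scipy 1.17.1 and plots from matplotlib 3.10.9.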

Additional observations from a re-analysis of the deposited data

How the results depend on the processing

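Of 26 alternatives for 4 values of the TE list (the wider window of neighbouring loci is given with its result), 14 left the value within 1.5 times (for the median log2, within its 95% order-statistic interval) and 12 moved it, in each case with fewer elements or a smaller gap by construction. The interval treats the members as independent draws, which they are not, so it served only as a cut for calling a median moved. Among the 14, keeping TE identifiers only could not have changed the number of groups, which are made of TE identifiers. The count of 14 is therefore not a measure of stability. With an absolute log2 of at least 1.5, 15 TEs were left, with a median log2 of -2.38 and 8 with a p-value below 1e-06. With at least 2, 13 were left, with a median of -2.91 and again 8. A p-value below 1e-06 left 17 TEs and 1 identifier group, and one below 1e-10 left 7 TEs and 1 group. A largest gap of 50 between identifier numbers gave 1 group in place of 3, and a gap of 1000 gave 4. Counting each group once leaves no group to count, so that value was not computed. No paired analysis was possible because the lists hold comparisons only, without values of single libraries. For the same reason, leaving out each replicate, another normalization and a filter on low counts were not run. The depth that limits each value is unknown.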
